A study of Ovis aries with 2 samples.

Results

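The genes described here are the ligands BMP2 and BMP4, the type I receptor BMPR1A and 5 genes of the nuclear response, ID1, ID2, ID3, MSX1 and MSX2. They were taken by name, all 8 were found among the 18161 genes of the deposited table, and they were followed in all 14037 cells. The cells came from the body side skin of Hu sheep lambs at day 3 of age, with straight wool or with curly wool, and no lamb was treated or genetically altered. For either wool type the skin of 3 lambs was pooled and made into 1 library of droplet single-cell RNA-seq, in which cells of microdissected hair follicles had been mixed with cells of whole skin. With 1 library per wool type there is no spread between samples, so no difference between straight and curly has a test, and every interval below is a 95% interval that covers counting error only.

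Bone morphogenetic proteins are secreted ligands that bring type I and type II receptors together on the cell surface, and the activated type I receptor phosphorylates SMAD1, SMAD5 and SMAD9, which enter the nucleus with SMAD4. ID genes, whose proteins bind basic helix-loop-helix factors and keep them off DNA, are direct and widely used readouts of this signal, and the homeobox genes MSX1 and MSX2 are targets in many embryonic tissues. In the hair follicle, BMP signals pass between the dermal papilla and the epithelium, hold stem cells in rest, and are needed in the matrix for the formation of the hair shaft and the inner root sheath.

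The straight library held 6452 cells with 57956122 UMIs (unique molecular identifiers, counted transcripts) and a median of 7373.5 UMIs per cell, and the curly library held 7585 cells with 77634565 UMIs and a median of 7495. The cells fell into 21 clusters, of which 6 stayed unnamed, and the 17 classes with at least 25 cells in each library were compared. Class names end in "-like" because they rest on marker genes, none of which is among the 8 genes, while unnamed clusters are called by leading genes. The study itself used MSX1 and ID3 among its matrix markers, so their height in matrix-like cells is not independent of that choice. Levels are UMIs of the gene per 1000000 UMIs of the class (CPM), and they are compared within a gene only, since they are not per length of transcript. The libraries shared 70 cell barcodes.

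The hair matrix gives rise to the shaft and to the inner root sheath (IRS) that surrounds it. Matrix-like cells numbered 554 in the straight and 964 in the curly library, hair shaft-like cells 276 and 441, and IRS-like cells 132 and 424. Together they were 14.9% of straight and 24.1% of curly cells and gave 26.0% and 41.6% of all UMIs. They held 84.1% of the MSX1 UMIs of the straight library and 90.4% of those of the curly library. For MSX2 these shares were 66.7% and 87.6%, and for ID3 63.8% and 74.9%. Of ID2, 47.2% and 68.7% lay there, and of ID1 34.3% and 51.0%. The ligands had shares of 36.7% and 61.2% for BMP2 and 39.3% and 68.7% for BMP4. BMPR1A was the one gene of the 8 with a smaller share in these cells than all UMIs had, at 22.2% and 35.7%.

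BMP2, a ligand that follicle epithelium is known to make, stood at 56.0 CPM in matrix-like cells of the straight library and at 38.1 CPM in those of the curly library. In IRS-like cells it reached 66.2 CPM (interval 55.3 to 78.5) and 34.0 CPM (30.0 to 38.5), and in hair shaft-like cells it was lower, at 27.4 and 15.0 CPM. The straight library had its highest BMP2 level, 99.9 CPM from 73 UMIs, in a cluster led by wool keratin genes whose cells had a median of 698 UMIs in straight and 759 in curly, far below the rest. That cluster stayed unnamed, and in the curly library it was at 23.8 CPM from 24 UMIs. In both wool types BMP2 was also present in the epidermis, where basal interfollicular epidermis (IFE)-like cells were at 31.2 and 14.3 CPM. Suprabasal IFE-like cells, the layers that differentiate above them, were at 39.9 and 23.0 CPM. It was scarce in the hair follicle stem cell (HFSC)-like class, a cluster led by LGR5, with 6 UMIs in 228 straight cells and 5 in 532 curly cells. This does not cover all stem-like cells. An unnamed epithelial cluster rich in PTHLH and SFTPC, part of which took the HFSC name at a finer resolution, was at 38.6 and 8.78 CPM.

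BMP4, the ligand best known from the dermal papilla, had 33.5 CPM in dermal papilla cell (DPC)-like cells of the straight library and 23.2 CPM in those of the curly library. Epithelial classes reached the same level or more. Hair shaft-like cells were at 48.4 CPM (42.2 to 55.1) and 51.2 CPM (46.3 to 56.3), and an unnamed epithelial cluster rich in PTHLH and SFTPC was at 56.4 and 29.1 CPM. The low-UMI wool keratin cluster was highest in both libraries, at 105 CPM from 77 UMIs and 53.6 CPM from 54 UMIs. This is the mixed cluster described for BMP2, and how BMP4 divides between its parts is not given here. IFE-like cells held little BMP4, with 7.74 and 5.97 CPM in the basal and 6.52 and 2.21 CPM in the suprabasal class.

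Within the DPC-like cells, finer clustering placed BMP4 in 2 of 3 subclusters. Cells high in FGF7 (658 straight and 257 curly) were at 2.43 and 3.41 CPM, whereas cells led by SOX18 and CRABP1 (466 and 350) were at 105 and 41.6 CPM. A dermal fibroblast-like subcluster led by LUM and COL1A1 (157 and 96 cells) was at 70.8 and 35.9 CPM. BMP2 was less uneven in straight DPC-like cells, at 12.9 CPM in the FGF7-high and 13.7 CPM in the SOX18 and CRABP1 subcluster. In the curly library these values were 18.4 and 46.5 CPM.

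BMPR1A, the receptor that binds both ligands, was the most evenly spread of the 8 genes. Its median over the 17 classes was 16.7 CPM for the straight library and 16.4 CPM for the curly one, and the highest class stood 1.65 and 2.3 times above that median. By the same measure MSX1 stood 27.7 and 21.2 times above its median. Endothelial-like cells were the lowest class for BMPR1A in both libraries, at 2.3 CPM (0.474 to 6.71) from 3 UMIs and 2.31 CPM (0.280 to 8.36) from 2 UMIs. ACVRL1, another type I receptor, and ENG, an accessory receptor, both of which endothelium is known for, were at 95.7 and 77.5 CPM and at 289 and 337 CPM in those cells.

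ID1 was highest in hair shaft-like cells, at 2009 CPM (1969 to 2050.5) in straight and 2238 CPM (2205 to 2271) in curly. Matrix-like cells were at 1010 and 1097 CPM and IRS-like cells at 421 and 407 CPM, so the classes that arise from the matrix lay on either side of it. In the PTHLH- and SFTPC-rich cluster ID1 was at 1283 and 1790.4 CPM. Endothelial-like cells were at 976 and 2098 CPM, and sweat gland-like cells were the lowest class, at 108 and 122 CPM.

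ID2 peaked in the same class, with 729 CPM (705 to 754) in straight and 736 CPM (717 to 755) in curly hair shaft-like cells. It was also high in sweat gland-like cells, at 608 and 523 CPM, the class in which ID1 was lowest. Matrix-like cells were at 348 and 363 CPM, DPC-like cells at 381 and 253 CPM, and HFSC-like cells at 60.3 and 35.6 CPM.

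ID3 was at 2201 CPM (2158 to 2244) in straight and 1604 CPM (1576 to 1632) in curly hair shaft-like cells. Unlike ID1 it did not fall towards the inner root sheath. IRS-like cells were at 1555 and 1533 CPM and matrix-like cells at 1669 and 1509 CPM. HFSC-like cells were at 123 and 91.7 CPM, near immune-like cells at 107 and 168 CPM. ID1 and ID3 thus parted in the IRS-like cells, where ID3 was near its matrix-like level and ID1 was not.

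MSX1 had a narrow range of classes. Hair shaft-like cells were at 182 CPM (170 to 195) and 167 CPM (158 to 176), matrix-like cells at 151 CPM (143 to 160) and 148 CPM (143 to 154), and IRS-like cells at 86.9 and 66.3 CPM. The only named class outside the fibre-forming cells with a comparable level was the endothelial-like class, at 100 CPM (83.9 to 119) from 131 UMIs and 134 CPM (111 to 161) from 116 UMIs. DPC-like cells were at 5.03 and 9.87 CPM, HFSC-like cells at 4.24 and 7.53 CPM and basal IFE-like cells at 5.12 and 4.69 CPM. Immune-like cells, which are not known for MSX1, were at 10.6 and 8.98 CPM, near the values of these lower classes.

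MSX2, the paralogue of MSX1, was also highest in hair shaft-like cells, at 54.6 CPM (48.1 to 61.8) and 60.1 CPM (54.8 to 65.7). Matrix-like cells were at 35.0 CPM (31.2 to 39.2) and 53.7 CPM (50.3 to 57.3), and IRS-like cells at 31.8 and 42.6 CPM. It differed from MSX1 in the other classes. Endothelial-like cells, with their high MSX1, were at 6.89 and 3.47 CPM of MSX2 from 9 and 3 UMIs. DPC-like cells were at 13.9 and 13.1 CPM, and pericyte-like cells at 39.2 CPM from 15 UMIs and 26.7 CPM from 19 UMIs. No MSX2 UMI was found in sweat gland-like cells of either library, which allows up to 6.04 CPM for straight and 7.26 CPM for curly cells at the upper end of the interval.

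**Figure D1:**
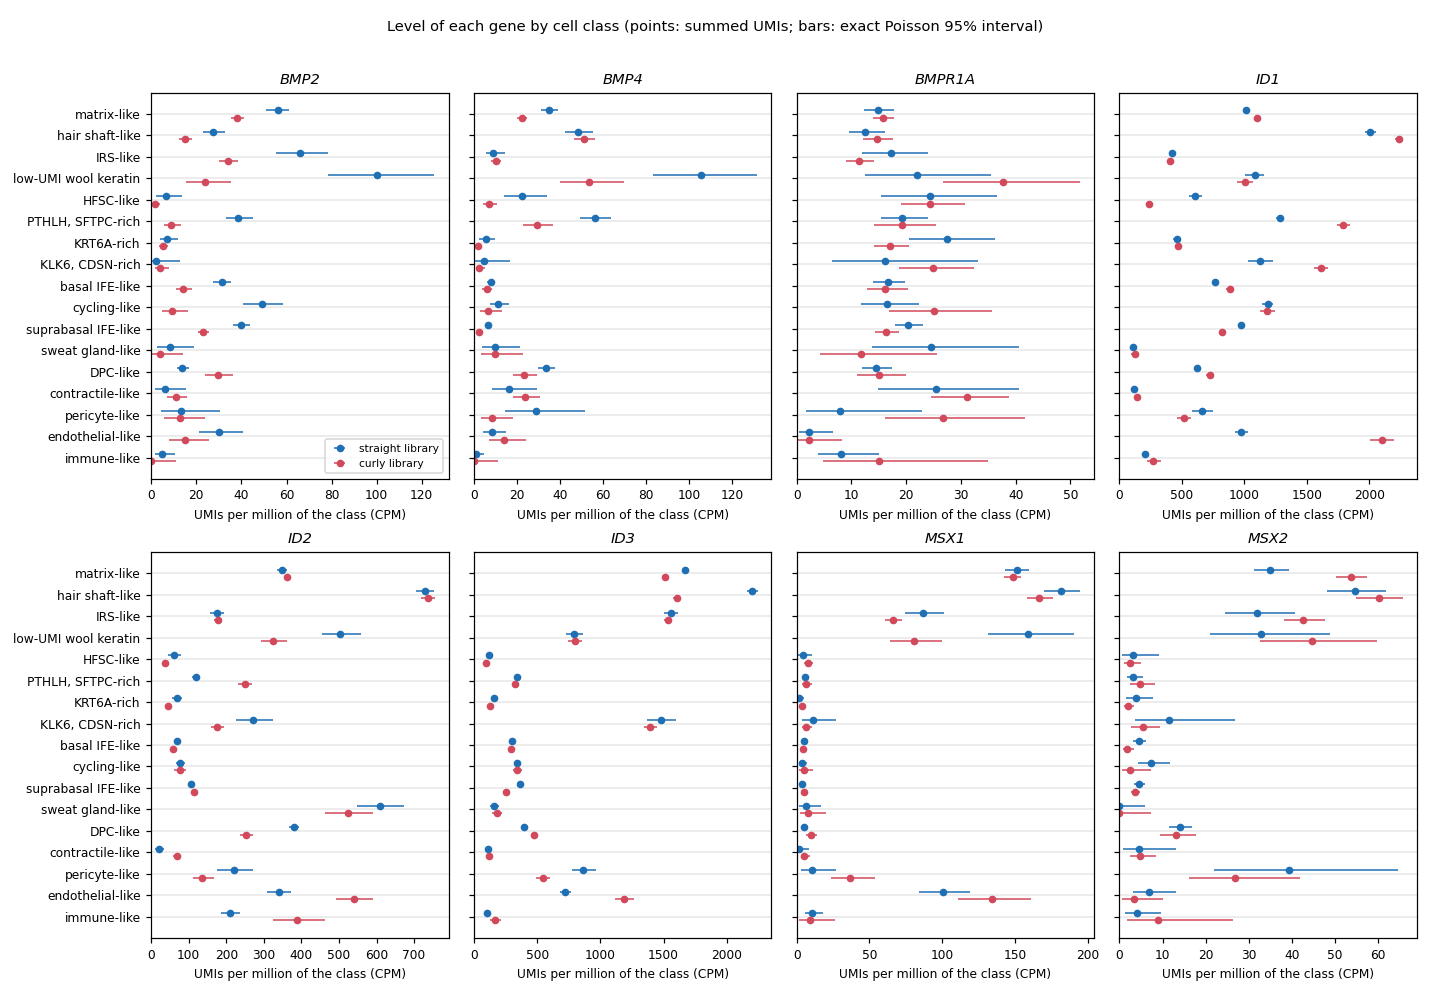
Level of each of the 8 genes (horizontal axis, CPM, linear from 0 and scaled per gene) in the 17 cell classes (vertical axis), with blue points for the straight and red points for the curly library and bars for the exact Poisson 95% interval. MSX1, MSX2, ID2 and ID3 are highest in hair shaft-like cells in both libraries, BMPR1A is spread over nearly all classes, and the endothelial-like class stands out for MSX1 at 100 and 134 CPM.

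Of the 8 genes, 6 had the same highest class in both libraries: BMP4 in the low-UMI wool keratin cluster and ID1, ID2, ID3, MSX1 and MSX2 in hair shaft-like cells. Neighbours in this order did not always differ beyond their intervals. For ID1, ID2 and ID3 the hair shaft-like class lay above the next class in both libraries. For MSX1 it did so in the curly library, and in the straight library its interval overlapped that of the low-UMI wool keratin cluster, at 159 CPM. For BMP4 the class lay above the next one in straight cells, and its interval overlapped that of the hair shaft-like class in curly cells. For MSX2, BMP2 and BMPR1A the intervals of the highest class and the next overlapped in both libraries.

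The depth of a cell differs between classes, so shares of cells with a UMI were taken after each cell with at least 2000 UMIs had been thinned to 2000. Shallower cells were left out of the thinned shares. MSX1 was then detected in 22.4% of 513 straight and 23.5% of 941 curly matrix-like cells, against 60.6% and 68.8% of the unthinned cells at median depths of 16602 and 18121 UMIs. In hair shaft-like cells the thinned shares were 26.8% and 25.1%, and in endothelial-like cells 15.3% (9.58% to 22.6%) and 21.1% (14% to 29.7%). Immune-like cells, a class that should lack MSX1, had a UMI in 2.32% of 259 straight cells (0.854% to 4.97%) and in 0 of 47 curly cells, which allows up to 7.55%, at unthinned median depths of 3707 and 3765 UMIs. The whole class held 301 straight and 93 curly cells, with median depths of 3342 and 2034 UMIs. The endothelial-like share lay above the immune-like share in both libraries, with intervals that did not overlap. DPC-like cells were at 1.01% and 1.98%. The part of free RNA or other carry-over in any of these shares was not tested.

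ID3 was found in 91.4% of straight and 77.5% of curly hair shaft-like cells at 2000 UMIs, with 97.8% and 97.5% unthinned. In matrix-like cells the thinned shares were 78.9% and 78.6%, and in IRS-like cells 84.4% and 83.1%. Immune-like cells were at 9.27% and 17.0%. ID1 was in 79.4% and 83.5% of hair shaft-like cells but in 34.9% and 39.4% of IRS-like cells, so the contrast between these classes held cell by cell as well as in the sums. BMP2 was detected in 8.77% and 7.23% of matrix-like cells, and in 0.772% and 0% of immune-like cells.

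Cells of the matrix-like and hair shaft-like classes were then ordered by the share of hair shaft markers among their UMIs and cut into 5 parts of equal size, with 166 straight or 281 curly cells each. ID1 climbed from 753 CPM in the first part to 1929.5 CPM in the fourth and 1834 CPM in the last part of the straight library. In the curly library it climbed from 805 to 2179 CPM. ID2 went from 254 to 762 CPM and from 232 to 812 CPM, and BMP4 from 31.5 to 54.7 CPM and from 14.4 to 53.5 CPM. These 3 genes were thus higher where hair shaft keratins were higher, in both libraries.

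BMP2 ran the other way. It was at 51.2 CPM in the first and 65.7 CPM in the third part of the straight library and at 21.1 CPM in the last, and at 43.3, 45.8 and 11.4 CPM in the curly library. MSX1 was highest in between, at 222 CPM in the third part for straight and 217 CPM in the fourth for curly, with 143 and 152 CPM in the last part. BMPR1A stayed within 12.9 to 18.2 CPM across all parts of both libraries.

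Along the same kind of order from matrix-like to IRS-like cells, ID1 declined from 1492 to 444 CPM in straight and from 1212 to 418 CPM in curly cells. ID2 declined from 459 to 202 CPM and from 395 to 160 CPM, and BMP4 from 46.9 to 13.7 CPM and from 26.5 to 12.1 CPM. ID3 remained between 1476 and 1923 CPM in straight and between 1349 and 1761 CPM in curly cells. MSX1 went from 166 to 115 CPM and from 146 to 61.9 CPM. The orders towards shaft and inner root sheath were therefore opposite for ID1, ID2 and BMP4, while ID3 was high along both. An order by marker share is a description of these cells, not a measured time course.

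**Figure D2:**
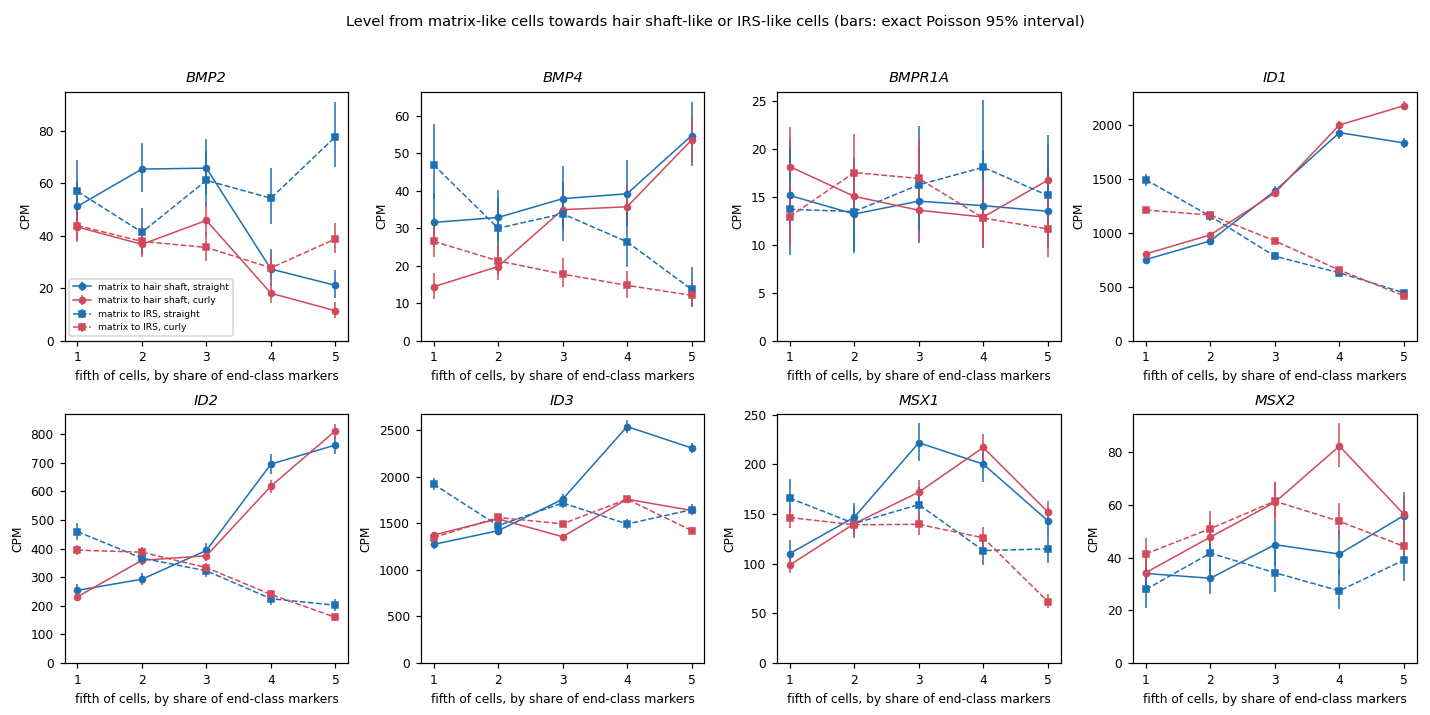
CPM (vertical axis, from 0) of each gene in 5 parts of the cells, ordered by the share of UMIs from hair shaft markers (solid lines, circles) or IRS markers (dashed lines, squares), in the straight (blue) and curly (red) library, with exact Poisson 95% intervals. ID1, ID2 and BMP4 go up towards the hair shaft and down towards the IRS, and BMP2 goes down towards the hair shaft, from 51.2 to 21.1 CPM in straight and 43.3 to 11.4 CPM in curly cells.

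The matrix-like class itself was not uniform. At the finer resolution it held a subcluster led by FABP7 and DCN, a cycling one led by UBE2C and TOP2A and one led by STC1 and PTGS2. ID1 was at 1336 and 1417 CPM in the FABP7 subcluster and at 289 and 583 CPM in the STC1 subcluster. MSX1 was at 185 and 171 CPM, 201 and 176 CPM, and 35.5 and 48.7 CPM in this order. BMP4 was at 53.9 and 31.6 CPM in the FABP7 subcluster and at 8.61 and 5.68 CPM in the STC1 subcluster, whereas BMP2 was at 48.0 and 32.9 CPM in the first and 87.8 and 41.7 CPM in the second of these. The cycling subcluster was at 45.5 and 40.0 CPM of BMP2, so the STC1 subcluster stood above both others in the straight library but lay within counting error of the cycling one in the curly library.

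Matrix-like cells with at least 5000 UMIs, 474 straight and 900 curly, were thinned to that depth and taken singly. ID2 was then seen in 65.5% of straight cells with an ID1 UMI and in 24.8% of those without one. The curly values were 65.1% and 33.8%. MSX2 was seen in 17.4% of straight cells with MSX1 and 11.3% without, with overlapping intervals, and in 28.5% (23.9% to 33.3%) and 13.5% (10.7% to 16.8%) of curly cells. MSX1 was found in 41.2% of straight cells with BMP2 and 39.8% without.

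Over the 18 clusters with at least 25 cells in each library, the pairs of genes with the closest profiles, on the log2(CPM + 5) scale, by the smaller of the r in the libraries, were ID3 with MSX1 (Pearson r 0.75 in straight, 0.76 in curly), MSX1 with MSX2 (0.74 and 0.79), ID2 with MSX1 (0.67 and 0.69) and ID3 with MSX2 (0.83 and 0.67). ID1 and ID3 had r of 0.64 and 0.68. BMPR1A was negatively related to ID1, ID2, ID3 and MSX1 in both libraries, from -0.44 to -0.22. All clusters of a library share its preparation, and these values describe 18 points.

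Among 9888 genes with at least 500 UMIs, likeness to a member was the smaller of the r in the 2 libraries. The genes most like MSX1 were LOC101112805 at 0.85, PENK, an opioid peptide precursor, at 0.82, LEF1, a nuclear partner of beta-catenin in WNT signalling, at 0.81, MYCN at 0.80 and the amino acid transporter SLC7A5 at 0.79. For MSX2 they were EMID1 at 0.93, SERBP1 at 0.86, NT5DC2 at 0.85, the proteoglycan gene DCN at 0.80 and LEF1 at 0.79. LEF1 and DCN are themselves markers that named the matrix-like cluster. ID3 was most like MID1IP1 at 0.80, EIF5A at 0.79, RPP21 at 0.78, PSMD8 at 0.78 and RABL6 at 0.78.

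For ID1 the list ran RAB5IF at 0.67, PSMA1 and SNAP29 at 0.65, ID3 at 0.64 and KLF13 at 0.60, so another of the 8 genes ranked in its first 5. ID2 was most like CITED4 at 0.74, LOC105606855 and SAT1 at 0.70, and GGH and RBBP6 at 0.69. BMP4 was most like the adhesion molecule NCAM1 at 0.78, then PLTP and AP4E1 at 0.75, TM7SF3 at 0.74 and SYS1 at 0.70. BMP2 had POLR3E at 0.76, TBRG4, NLE1 and UBTD1 at 0.70 and LOC114114905 at 0.66. BMPR1A had ANAPC15 at 0.71, the kinase AKT2 and the tumour suppressor NF2 at 0.67, the polarity gene PARD3 at 0.66 and EGFR at 0.64.

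The comparison of straight with curly wool asks which genes differ with the shape of the fibre. Over all cells, BMP2 was at 34.5 CPM for straight against 21.3 CPM for curly wool, a log2 ratio of curly over straight of -0.69 (-0.79 to -0.60). BMP4 was at 23.6 and 16.2 CPM (-0.54, -0.65 to -0.43). Both ligands were thus lower in the curly library. MSX2 was at 15.9 and 25 CPM (0.66, 0.55 to 0.77), MSX1 at 47.1 and 61.6 CPM (0.39, 0.32 to 0.46) and ID3 at 742 and 854 CPM (0.20, 0.19 to 0.22), so these were higher in curly. ID1 was at 942 and 997 CPM (0.08), ID2 at 244 and 250.2 CPM (0.04) and BMPR1A at 17.0 and 16.9 CPM (-0.01).

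None of the 8 genes was 2-fold apart over all cells, where 10.2% of all genes with at least 100 UMIs were, and the median of all genes was -0.18. Relative to that median, BMPR1A turned from -0.01 to 0.18 with scaling by the median of ratios. The curly library also held more cells of the fibre-forming classes, in which MSX1, MSX2 and ID3 were high, so the comparison was repeated within classes.

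A gene was compared within a class if it had at least 100 UMIs there over both libraries, which left 84 of 136 pairs of gene and class. Of these, 9 were at least 2-fold apart (10.7%), 5 lower and 4 higher in curly. Over all genes and classes 6.54% of pairs were. BMP2 gave 4 of the 9, and BMPR1A, ID3, MSX1 and MSX2 gave none. In matrix-like cells 0 of the 8 genes passed (2.87% of all genes did), in hair shaft-like cells 0 of 8 (3.64%) and in IRS-like cells 0 of 7 (4.27%). At these shares fewer than 1 of the members would be called in each of these classes, so nothing is read from the counts of 0.

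**Figure D3:**
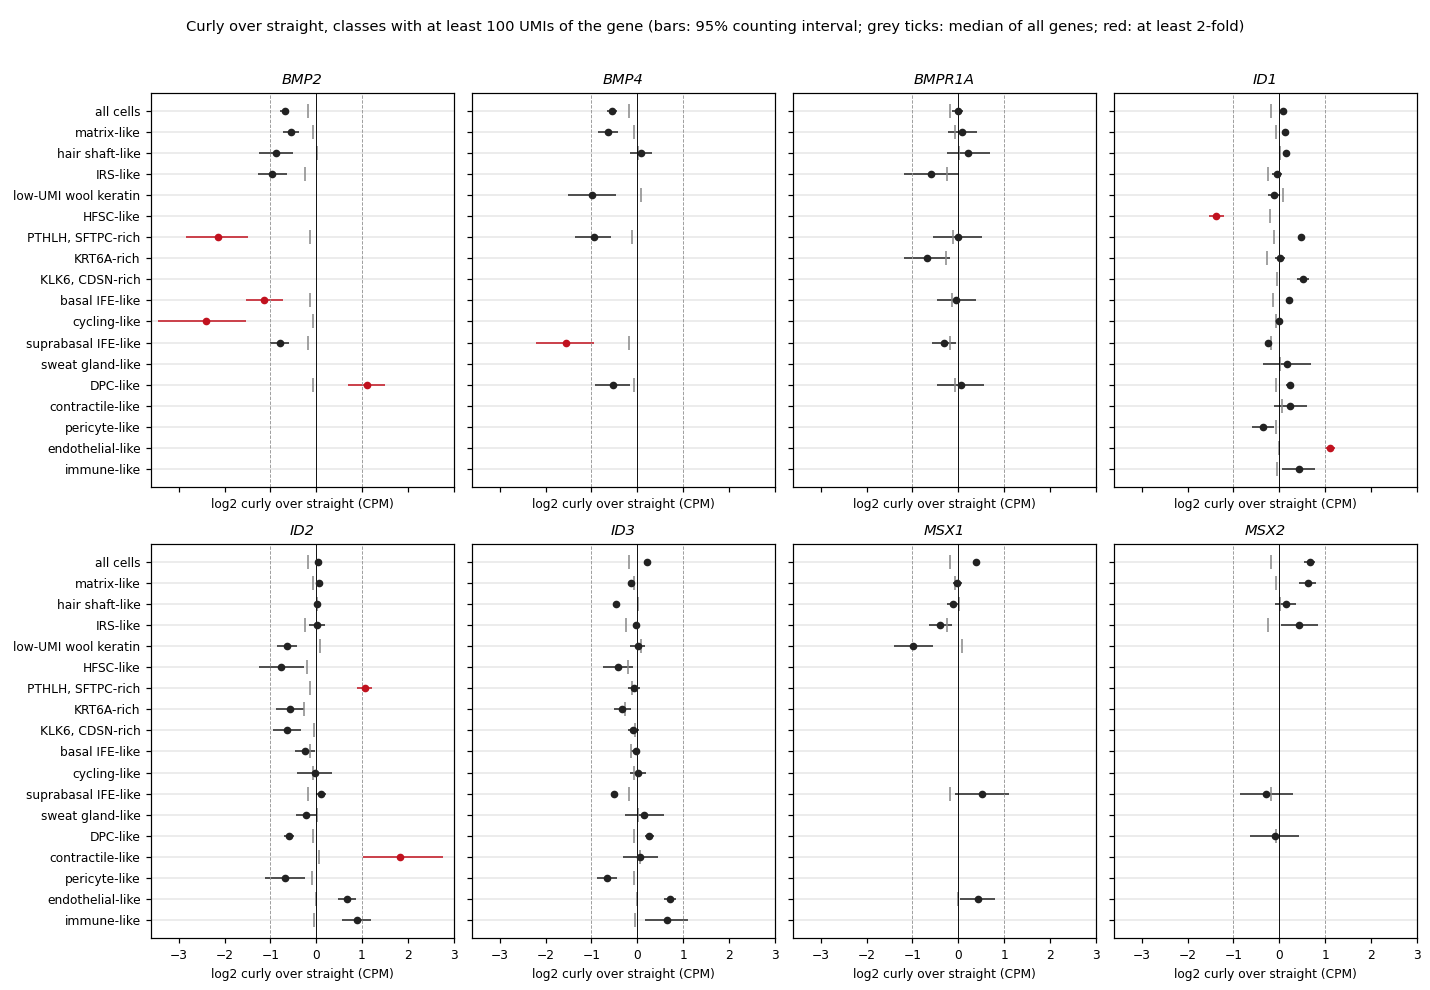
Log2 ratio of curly over straight (horizontal axis) for each gene over all cells and in each class with at least 100 UMIs of the gene (vertical axis), with 95% counting intervals, the median of all genes as a grey tick, dashed lines at 2-fold and red points for ratios of at least 2-fold. BMP2 lies left of 0 in 7 of its 8 classes and right of it in DPC-like cells, at 1.10, and BMPR1A lies near 0.

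BMP2 was lower in curly in 7 of the 8 classes compared, each with an interval below 0. It was over 2-fold lower in the PTHLH- and SFTPC-rich cluster, at 38.6 and 8.78 CPM (168 and 22 UMIs; log2 ratio -2.14, -2.85 to -1.49; 4.73% of all genes were 2-fold apart there). The same held in basal IFE-like cells, at 31.2 and 14.3 CPM (-1.13, -1.54 to -0.73; 5.2% of genes), and in cycling-like cells, where the ratio was lowest, at 49.0 and 9.18 CPM from 119 and 11 UMIs (-2.42, -3.46 to -1.52; 8.56%). Under 5 other settings of the processing the basal IFE-like ratio ran from -2.06 to -0.92. It was past 2-fold in 4 of them, including a lower minimum of UMIs that cannot move it. In IRS-like cells the ratio was -0.96, in hair shaft-like cells -0.87, in suprabasal IFE-like cells -0.79 and in matrix-like cells -0.55. The median over the 8 classes was -0.92, against -0.10 for the 3120 genes that could be compared in all 8. Of those, 1.19% had a median at or below that of BMP2. In all 8 classes 18.8% were lower, which BMP2 was not, and the share lower in 7 or more was not counted.

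The cycling-like class carried the markers of basal IFE-like cells, with list sums of 33651 and 41108 CPM. With resolution 0.8 a cluster of matrix origin (247 straight and 397 curly cells) took this name as well. It was pooled with the cluster of the original cycling-like cells (182 and 90), and the ratio was -0.39. With a stricter minimum of genes per cell, clusters of matrix origin took this name and the ratio was -0.45. Other markers moved as well. In basal IFE-like cells the suprabasal IFE markers summed to 1035 and 2939.8 CPM and IRS markers to 170.0 and 418 CPM. In cycling-like cells the same lists summed to 2075 and 3378 CPM and to 143 and 295 CPM. In the PTHLH- and SFTPC-rich cluster IRS markers summed to 166 and 505 CPM and DPC markers to 782 and 419.6 CPM, and the part of these in the BMP2 ratios was not tested. Without integration of the libraries the PTHLH- and SFTPC-rich cluster gave -0.92 and basal IFE-like cells -2.06. These were other sets of cells. The first then held 2108 straight and 279 curly cells, against 478 and 313 with integration. The second held 221 and 807, against 906 and 580, so the BMP2 ratios of both classes also depend on integration.

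Both subclusters of the PTHLH- and SFTPC-rich cells showed the lower BMP2. The one led by PTHLH and SFTPC was at 18.3 and 3.26 CPM, and the one led by PPP2R2B and SFRP1, which also had the higher ID1, was at 55.8 and 11.9 CPM (-2.22, -3.03 to -1.5). At this finer resolution the markers gave the PPP2R2B and SFRP1 subcluster the name HFSC. BMP4 differed between the subclusters, with 74.5 and 34.3 CPM in the one led by PTHLH and SFTPC and 16.5 and 19.9 CPM in the other.

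DPC-like cells went the other way, with BMP2 at 13.8 CPM in straight (110 UMIs) and 29.6 CPM in curly (93 UMIs). The log2 ratio was 1.10 (0.69 to 1.51), where 7.98% of all genes were 2-fold apart and 97.8% of genes had a ratio at or below it, and BMP2 was 1 of 7 compared members past the limit. The difference was larger in the SOX18 and CRABP1 subcluster (1.76, 1.10 to 2.45) than in the FGF7-high subcluster (0.51, -0.18 to 1.18), whose interval spanned 0. The dermal fibroblast-like subcluster had 13 BMP2 UMIs in straight and 0 in curly. DPC-like cells of the 2 libraries came together only through integration: without it, the DPC-like cluster held 1243 straight and 23 curly cells, and a dermal fibroblast-like cluster 46 and 689. Markers of IRS keratins summed in these cells to 200.3 CPM (straight) and 643 CPM (curly), and matrix markers to 492 and 1116 CPM, and their part in the result was not tested.

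BMP4 was lower in curly in 5 of its 6 classes, each with an interval below 0, and at 0.08 (-0.16 to 0.32) in hair shaft-like cells. It was 2-fold apart in suprabasal IFE-like cells, at 6.52 and 2.21 CPM from 78 and 31 UMIs (-1.56, -2.21 to -0.94; 1 of 8 members, 8.31% of all genes). The low-UMI wool keratin cluster gave -0.98, the PTHLH- and SFTPC-rich cluster -0.95, matrix-like cells -0.64 and DPC-like cells -0.53. Within DPC-like cells the ratio was -1.34 (214 and 59 UMIs) in the SOX18 and CRABP1 subcluster and -0.98 (-2.21 to 0.09; 40 and 9 UMIs) in the dermal fibroblast-like one. The SOX18 and CRABP1 subcluster, in which BMP2 was higher in curly, differed between the libraries in other genes too: LUM was at 215 and 31.0 CPM (-2.80) and SOX18 at 899 and 426 CPM (-1.08), and the part of a different mix of cells in the BMP2 and BMP4 ratios was not tested. In suprabasal IFE-like cells the basal IFE markers summed to 23142.5 and 12457 CPM, the suprabasal ones to 36340.1 and 58453 CPM and DPC markers to 252 and 82.3 CPM, whose part in the BMP4 ratio was not tested either. BMPR1A had 0 of 8 classes past 2-fold, a median ratio of -0.03 and 6 intervals that spanned 0.

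ID1 passed 2-fold in 2 of 17 classes, in opposite directions. HFSC-like cells were at 607 and 234 CPM (-1.38, -1.54 to -1.21; 1 of 3 members, 5.51% of all genes). Endothelial-like cells were at 976 and 2098 CPM (1.10, 1.0 to 1.21; 1 of 4 members, 6.66%). In the other 15 classes the ratio was within 2-fold, from -0.36 in pericyte-like to 0.52 in KLK6- and CDSN-rich cells.

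The HFSC-like result depended on which cells took that name. With a stricter minimum of genes per cell it was 0.73, with the 8 genes and the pathway list among the variable genes 0.016, and with resolution 0.8 or without the highest doublet scores -0.59. Without integration the HFSC-like cluster held 2 straight and 749 curly cells. The straight HFSC-like cells had 2988 UMIs at the median and the curly ones 5517, and markers of DPC summed to 754 and 216 CPM, whose part in the result was not tested.

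In endothelial-like cells the other compared members moved the same way as ID1. ID2 was at 339 and 540.4 CPM (0.67, 0.48 to 0.86), ID3 at 723 and 1191 CPM (0.72, 0.59 to 0.85) and MSX1 at 100 and 134 CPM (0.42, 0.05 to 0.79). All 4 were higher in curly, none but ID1 by 2-fold, and the median of all genes in these cells was -0.01. HEY1, an endothelial target of BMP and NOTCH signals, was at 42.1 and 102 CPM (1.27, 0.77 to 1.79), and ENG and ACVRL1 were within 2-fold. The mean of the per-cell CPM put ID1 at 0.84 and no longer at 2-fold. The 6 endothelial markers summed to 2977 and 3316 CPM, all above 0 in both, while suprabasal IFE markers summed to 1290 and 3319 CPM and DPC markers to 901 and 1390 CPM. Curly endothelial-like cells were also shallower, with a median of 3827 against 5306 UMIs, and the part of these in the result was not tested.

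ID2 was 2-fold higher in curly in the PTHLH- and SFTPC-rich cluster, at 119.8 and 249 CPM (1.06, 0.89 to 1.23; 2 of 6 members passed there with BMP2), and in contractile-like cells, which express smooth muscle genes, at 19.4 and 68.9 CPM from 13 and 171 UMIs (1.83, 1.01 to 2.77; 1 of 3 members, 11.8% of all genes). In contractile-like cells DPC markers summed to 522 and 81.4 CPM, IRS markers to 166 and 376 CPM and suprabasal IFE markers to 537 and 1032 CPM, at median depths of 7033.5 and 10680.0 UMIs, and their part in the result was not tested. The basal IFE markers summed to 8201 and 9365 CPM in contractile-like cells, against 1210 and 2204 CPM in pericyte-like cells. The contractile-like class thus expressed basal IFE markers as well as smooth muscle genes. In the PTHLH- and SFTPC-rich cluster the ID2 ratio was -0.41 with the stricter minimum of genes per cell and 0.39 without integration. In DPC-like cells ID2 was lower in curly, at 381 and 253 CPM (-0.59), and within them at -1.33 in the SOX18 and CRABP1 subcluster. In 17 classes, 9 ratios of ID2 were below and 8 above 0.

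ID3 was within 2-fold in all 17 classes, from -0.66 in pericyte-like to 0.72 in endothelial-like cells. In hair shaft-like cells it was lower in curly, at -0.46 (-0.49 to -0.42), and ID1 there was at 0.16 (0.12 to 0.19). MSX1 was at -0.03 (-0.13 to 0.07) in matrix-like and -0.13 (-0.25 to 0.00) in hair shaft-like cells, so its higher level over all cells in the curly library was not found within these classes. It was lower in curly in 4 of its 6 classes, with -0.39 (-0.64 to -0.13) in IRS-like cells. The low-UMI wool keratin cluster gave -0.98 (-1.41 to -0.56). The 2 higher ones were endothelial-like (0.42, 0.05 to 0.79) and suprabasal IFE-like cells (0.51, -0.07 to 1.12). MSX2 was higher in curly matrix-like cells, at 0.62 (0.43 to 0.81), where 96.3% of genes had a ratio at or below it, and in IRS-like cells, at 0.42 (0.03 to 0.83). In hair shaft-like cells it was at 0.14 (-0.09 to 0.36). All 3 matrix subclusters had MSX2 ratios above 0, at 0.39, 0.49 and 0.54, the last with an interval that spanned 0.

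The other genes of the pathway were taken from a list of 63, of which 56 were in the table. Over all cells 44 could be compared, with 2 at least 2-fold higher and 10 lower in curly and a median of -0.39, against 10.2% past 2-fold and a median of -0.18 for all genes. Within classes 25 of 214 pairs passed, 20 of them lower in curly, where 6.54% of the pairs of all genes did. By role, 0 of 11 pairs of other ligands and 0 of 27 pairs of other receptors passed, nor did the 2 pairs of the membrane inhibitor BAMBI. Of the extracellular inhibitors and modulators, 15 of 55 pairs were lower and 1 higher, with a median of -0.40. Of the SMAD group 1 of 37 was lower, and of the nuclear targets and partners 4 of 82 were lower and 4 higher. The pairs past 2-fold were thus mostly those of secreted inhibitors.

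FST, follistatin, which binds activins and some BMPs, made up most of these. It was lower in curly in 12 of 12 classes and by at least 2-fold in 9, with a median of -1.39. Basal IFE-like cells were at 689 and 286 CPM (-1.27, -1.35 to -1.18), the PTHLH- and SFTPC-rich cluster at 398 and 167 CPM and matrix-like cells at 50.6 and 13.9 CPM. DPC-like cells were at 717 and 449 CPM (-0.68) and did not pass. Of the 7 classes with lower BMP2 in curly, FST could be compared in 6 and was lower in each, and it was lower in DPC-like cells too, where BMP2 was higher. A lower value in every class was not rare, since 18.8% of 3120 genes were lower in all 8 classes compared for BMP2. The same share for the 12 classes of FST was not counted.

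SOSTDC1, a secreted BMP and WNT inhibitor, was at 429 and 163 CPM in DPC-like cells (-1.40) and at 341 CPM in both libraries in HFSC-like cells. In contractile-like cells SOSTDC1 (-1.37) and HES1 (-1.62) were lower and FSTL1 (1.33) and GATA3 (1.10) higher in curly. FSTL1 was lower in suprabasal IFE-like cells (-1.03). SMOC2 (-1.70) and RUNX3 (-1.02) were lower in DPC-like cells, CRIM1 (-1.15) in HFSC-like cells, FSTL3 (-1.07) in basal IFE-like cells and SMAD1 (-1.42) in KRT6A-rich cells. DLX3 was higher (1.58) and GATA3 lower (-1.45) in the KLK6- and CDSN-rich cells, and SKIL was lower in cycling-like (-1.19) and higher in immune-like cells (1.12). In these classes between 5.2% (basal IFE-like) and 12.7% (KLK6- and CDSN-rich, with 39 straight cells) of all genes were 2-fold apart, and 12.6% in immune-like cells. Without integration the DPC-like cluster held 23 curly cells and the HFSC-like cluster 2 straight cells, so ratios in these classes rest on integration.

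Of the list, 7 genes reached 100 CPM in some class in both libraries. ENG did so only in endothelial-like cells and ID4 only in HFSC-like cells. FST did so in 3 classes and FSTL1 in 2, both with DPC-like cells highest by the lower library, and GATA3 in 4, with IRS-like cells highest. SOSTDC1 reached it in 7 classes, with 341 CPM in HFSC-like cells of both libraries. HES1 was the most widespread, in 13 classes, with 427 and 469 CPM in endothelial-like cells. ID4, the remaining ID gene, was at 138 and 121 CPM in HFSC-like cells, the class in which ID2 and ID3 were among their lowest. GATA3, which the inner root sheath needs, was at 240.0 and 260.3 CPM in IRS-like cells and 4.53 and 5.08 CPM in hair shaft-like cells. FSTL1 was at 232 and 233 CPM in DPC-like cells. In hair shaft-like cells, where ID1, ID2, ID3, MSX1 and MSX2 peaked, FST was at 19.6 and 7.93 CPM and SOSTDC1 at 9.07 and 6.94 CPM.

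**Figure D4:**
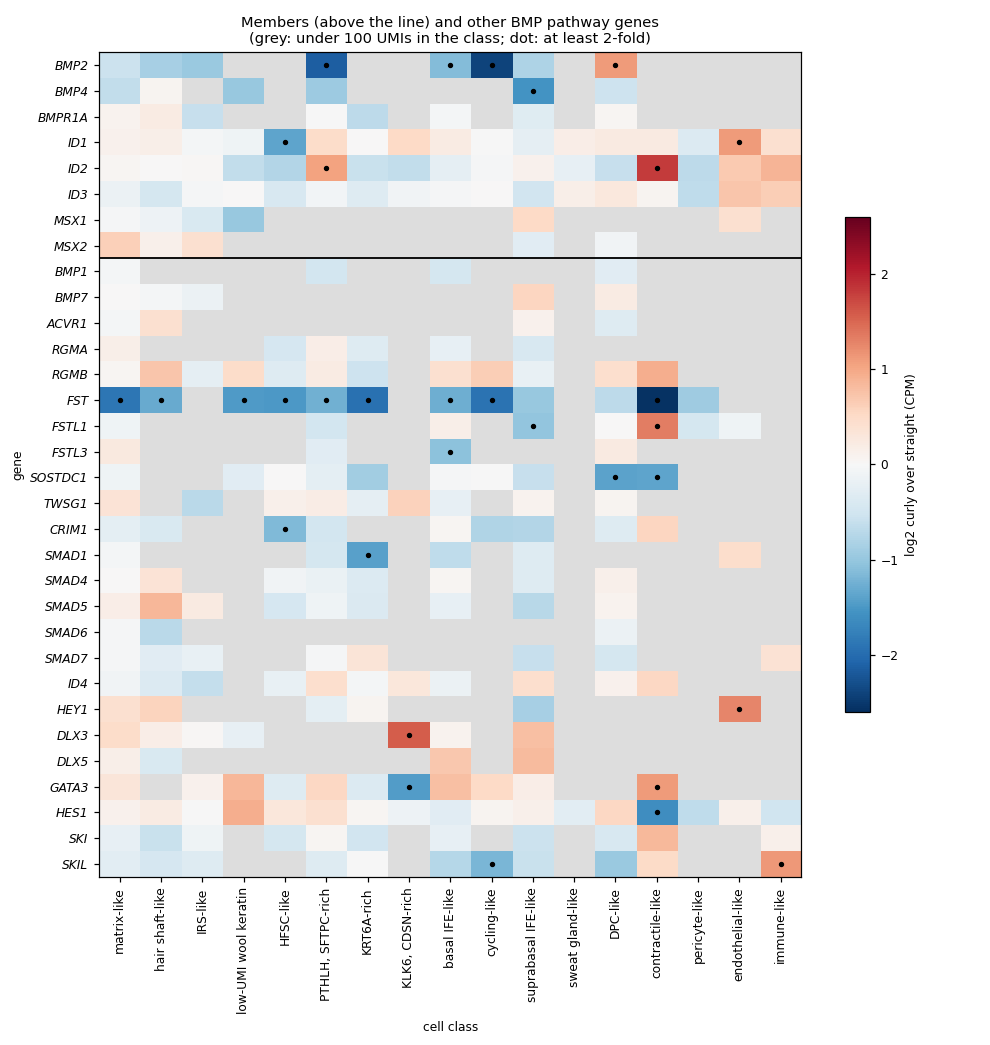
Log2 ratio of curly over straight (colour, red higher and blue lower in curly) for the 8 genes above the line and 24 other pathway genes compared in at least 3 classes below it (rows) in the 17 classes (columns), with grey cells under 100 UMIs and dots at 2-fold or more. The row of FST is blue in 12 of 12 classes, and the row of BMP2 is blue apart from DPC-like cells.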

How the data were processed

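After alignment of 10x Genomics reads to Oar_rambouillet_v1.0, UMI counting and cell filtering, the authors deposited a single table of natural log values, ln(1 + UMIs scaled to 10000 per cell). The submitters' processing notes give Cell Ranger 3.0.2, and the paper's methods name another version. The design text counts 15830 cells where the table holds 14037. From these values the UMI counts were recovered: 100% of 28552149 values above 0 came out whole within 0.01 (largest deviation 0.0067). No cell was removed, and no column belonged to another sample. The limit that a count of 0 over a whole library allows is 3 counts (0.0518 CPM for straight, 0.0386 CPM for curly). Cluster markers named KRT14 and KRT15 were found under LOC names through a RefSeq annotation of another assembly, from which no position or sequence was taken, and no sequence is printed.

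The libraries were integrated by anchors in Seurat 5.3.0 (R 4.3.3) on 2000 variable genes, without the 8 genes and the pathway list, and 30 dimensions. Resolution 0.3 was the lowest in steps of 0.1 with at least 19 clusters. A cluster was named by the class whose markers stood highest against the other clusters (mean log2 ratio, 5 CPM added), if this mean was at least 1.2, at least 3 markers were detected in 10% of its cells, no other class had more markers among its 10 leading genes, and, for clusters with a median depth more than 3 times below that of the library, a marker was among these. Cycling markers named a cluster only where they led. The matrix-like cluster scored higher for cycling than for matrix markers and took its name from the latter. The limit of 1.2 was set after the data were seen. Doublets were kept, with Scrublet scores (scanpy 1.11.5) used in an alternative that removed 6% of cells.

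CPM have exact Poisson, shares of cells exact Clopper-Pearson, and ratios exact binomial-split 95% intervals. Scripts used pandas 2.3.3, scipy 1.17.1, matplotlib 3.10.9 and numpy 2.4.6 under Python 3.11.15, and were tested on simulated data. The named genes are the 8 members, pathway genes at 100 CPM in some class of both libraries or past 2-fold in a class with 100 UMIs, and the 5 genes most like each member. The members and lists were chosen with earlier results of these data known.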

Additional observations from a re-analysis of the deposited data

Results flagged for a closer look

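In 4 classes the curly over straight log2 ratio of BMP2 was at least 2-fold in opposite directions: 1.10 in DPC-like cells, against -2.14 in the PTHLH- and SFTPC-rich cluster, -1.13 in basal IFE-like cells and -2.42 in cycling-like cells. All UMIs behind these ratios come from 1 library per wool type, and the difference between the classes was not tested. In DPC-like cells the ratio rested on 110 straight and 93 curly UMIs.

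For ID1 the ratio was -1.38 in HFSC-like cells and 1.10 in endothelial-like cells, again in opposite directions, and this difference was not tested either. The first of these changed sign with other choices of cells and genes, as given in the part on processing.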

How the results depend on the processing

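Of 84 pairs of member and class, 9 were 2-fold apart; with at least 20 UMIs 18 of 114 were, and without integration 5 of 65. For the pathway list 25 of 214 pairs became 73 of 421 with at least 20 UMIs and 59 of 214 with a 1.5-fold limit. ID1 in HFSC-like cells, at -1.38, turned to 0.73 with a stricter minimum of genes per cell and 0.016 with the members among the variable genes, where other clusters took that name. ID2 in the PTHLH- and SFTPC-rich cluster, at 1.06, turned to -0.41 with that stricter minimum, and the cause was not tested. Many other values left their printed intervals. With the mean of the per-cell CPM 38 of 92 ratios and 18 of 32 matrix-like and hair shaft-like levels did. Median scaling moved 25 of 92 ratios. The stricter minimum moved 23 of 64 and reversed 2. Resolution 0.8 moved 17 of 77 ratios and 19 of 32 levels. With the members among the variable genes 6 of 76 ratios moved. Leaving aside the lower minimum of UMIs, which cannot move a ratio, BMP2 stayed past 2-fold in DPC-like cells in 6 of 6 alternatives that gave a value (1.08 to 1.42), BMP4 in suprabasal IFE-like cells in 3 of 3 and ID2 in contractile-like cells in 7 of 7. Without integration the DPC-like ratio of BMP2 had no value, since the DPC-like cluster then held 23 curly cells, and the suprabasal ratio of BMP4 had none either. That BMP4 ratio had a value in only 4 of the 8 alternatives, counting the lower minimum of UMIs. Among these, the mean of the per-cell CPM and the median scaling keep the same clusters. They say little on the choice of cells. No matrix-like class was found with that stricter minimum.

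No paired analysis was possible because each wool type has 1 library. In alternatives, BMP2 was lower in curly in between 6 of 6 and 10 of 12 classes, and 0 members were 2-fold apart over all cells under any alternative run. Alternatives that only redraw the clusters or lower the minimum of UMIs cannot change this last count. It could change only with the mean of the per-cell CPM, the median scaling, the stricter minimum of genes or the removal of the highest doublet scores. Genes at a few CPM in small classes could not be compared at this depth.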
